A study of Arabidopsis thaliana with 8 samples.

Results

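Plant microRNAs (miRNAs) that act on pentatricopeptide repeat (PPR) mRNAs or start trans-acting siRNAs (TAS siRNAs) from TAS1 and TAS2 were followed. These miRNAs were measured on 8 single-colour arrays of whole *Arabidopsis thaliana* Col-0 seedlings. They were taken by name as the rows ath-miR161.1, ath-miR161.2, ath-miR400 and ath-miR173 (the prefix, for *A. thaliana*, is left out below), that is 4 of the 43 miRNAs with a measured value on all arrays. The deposited table lists a further 4 miRNAs at its lowest value on some arrays and 114 on all of them. All seedlings were 7 days old and grown in liquid half-strength MS medium with sucrose under continuous light. The groups were EBR30 (24-epibrassinolide, a brassinosteroid hormone, at 10 nM for 30 min), mock30 (a mock solution of DMSO for 30 min), EBR180 (the same EBR dose for 180 min) and mock180 (DMSO for 180 min), with 2 arrays each. No untreated seedlings were among the arrays. The RNA came from complete seedlings, so roots and shoots cannot be separated, and fewer cells with a miRNA and less of it per cell cannot be told apart. The design text names 2 independent experiments at each time. It does not say whether an experiment holds separate cultures, so the p-values may measure only a technical spread.

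PPR proteins are a large family of RNA-binding proteins that edit, splice and stabilise the transcripts of chloroplasts and mitochondria. A plant miRNA guides an ARGONAUTE protein to its target transcript, which is then usually cut within the paired stretch. miR161.1 and miR161.2 arise from partly overlapping positions of one precursor, and both guide cleavage of PPR mRNAs. miR400 also targets PPR mRNAs. miR173 cuts the noncoding TAS1 and TAS2 transcripts, and the fragments are then copied into double-stranded RNA and diced into phased secondary siRNAs. Some of these siRNAs target PPR mRNAs in turn, so that the 4 miRNAs meet on the same gene family. The arrays measured the miRNAs only, and neither the PPR mRNAs nor the TAS siRNAs were analysed here.

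In the RefSeq annotation of assembly TAIR10.1 the locus MIR161 is AT1G48267, and its neighbours are CIPK17, a protein kinase gene, and the pseudogene AT1G48268. MIR400 is AT1G32582 and lies within the span of the protein-coding gene AT1G32583. MIR173 is AT3G23125, next to SUP (SUPERMAN), a regulator of flower development. Of the transcripts that miR173 cuts, TAS1A is AT2G27400, TAS1B is AT1G50055, TAS1C is AT2G39675 and TAS2 is AT2G39681. TAS1C and TAS2 are direct neighbours in that annotation. The same annotation names 5 genes as heat-induced TAS1 targets.

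Every value below is the deposited ratio of a miRNA to its own median over the 8 arrays, on a linear scale. A ratio of 1 is therefore the middle of that miRNA's own values, and the ratios do not show which of the 4 miRNAs was more abundant. All 4 members lay above the lowest deposited value of 0.01 on all 8 arrays, and the 43 miRNAs of which this held were tested together. The array-wide median ratio over the 43 was 0.970 and 0.988 in EBR30, 0.818 and 0.931 in mock30, 1.12 and 1.02 in EBR180, and 1.07 and 1.08 in mock180. Because these medians moved with the groups, the limma results of the 4 miRNAs are also given after every array was centred on its own median.

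miR161.2 differed most among the groups. Its ratio was 0.996 and 1.00 on the EBR30 arrays and 0.750 and 0.782 on the mock30 arrays. It was 1.06 and 0.875 on the EBR180 arrays and 1.40 and 1.30 on the mock180 arrays. Both mock30 arrays lay below all other arrays and both mock180 arrays above all others, while the EBR arrays of the 2 times overlapped. The order of the group means was mock30, EBR180, EBR30 and mock180, and only the neighbours EBR180 and EBR30 overlapped. Such separations were common on these arrays. Of the 43 tested miRNAs, 65.1% had EBR30 above mock30 without overlap, 76.7% had mock180 above mock30 and 32.6% had EBR180 below mock180. The share with the whole pattern was not computed. The log2 range over the 8 arrays was 0.90, the 6th widest of the 43.

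miR161.1, the other product of the locus, stayed close to the array median throughout. Its ratio was 0.969 and 1.02 in EBR30 and 0.816 and 0.900 in mock30, and it was 1.08 and 0.976 in EBR180 and 1.05 and 1.10 in mock180. The mock30 arrays were the lowest, and EBR180 overlapped both EBR30 and mock180, while EBR30 lay below mock180. Among the 43 tested miRNAs, mock30 lay below EBR30 without overlap for 65.1% and below mock180 for 76.7%. After centring, the standard deviation over the 8 arrays was 0.042 on the log2 scale, which ranked 42nd of 43 from the most to the least variable, against 0.23 and rank 8 for miR161.2.

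miR400 followed the same order as miR161.1 but over a wider range. Its ratio was 0.957 and 0.935 in EBR30, 0.746 and 0.818 in mock30, 1.20 and 1.04 in EBR180, and 1.24 and 1.29 in mock180. The 4 groups did not overlap anywhere in the order mock30, EBR30, EBR180 and mock180. Taken singly, these steps were seen for 65.1%, 51.2% and 32.6% of the 43 tested miRNAs. The log2 range was 0.79, the 11th widest.

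miR173 had ratios of 0.967 and 0.964 in EBR30 and 0.794 and 0.8825 in mock30. At the later time they were 1.14 and 1.03 in EBR180 and 1.13 and 1.15 in mock180. Here too mock30 was lowest and EBR30 next, and only EBR180 and mock180 overlapped. EBR30 lay above mock30 without overlap for 65.1% of the 43 tested miRNAs, and EBR180 above EBR30 for 51.2%. After centring, its standard deviation of 0.057 ranked 40th of 43, close to that of miR161.1. On all 4 miRNAs the first EBR180 array was higher than the second, and the median of all 43 differed between these arrays in the same direction.

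**Figure D1:**
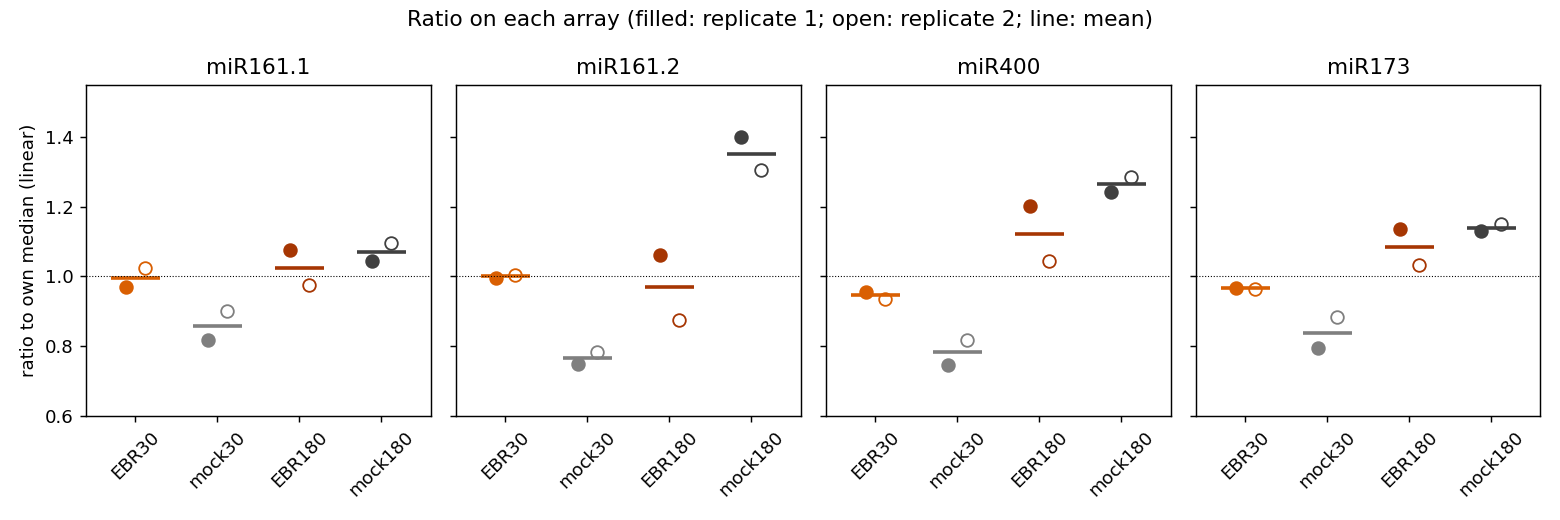
Ratio of each miRNA to its own median (vertical axis, linear) on each of the 8 arrays, by group (filled points replicate 1, open points replicate 2, lines group means, dotted line a ratio of 1). The mock180 arrays of miR161.2, at 1.40 and 1.30, and of miR400, at 1.24 and 1.29, stand above all other arrays of these miRNAs, and mock30 is the lowest group of all 4.

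Over the 4 groups, 3 of the 4 miRNAs passed limma's moderated F-test at an adjusted p under 0.05, where 62.8% of the 43 tested miRNAs passed. The adjusted p was 1.24e-08 for miR161.2, 6.82e-07 for miR400 and 0.00349 for miR173, and 0.0799 for miR161.1. After centring, miR161.2 (adjusted p = 0.00528) and miR400 (0.00482) passed, while miR173 had 0.0659 and miR161.1 had 0.375, at a background of 48.8%. Every miRNA was also given its own variance, like the analysis of variance described in the methods, but with adjustment over the 43. miR161.2 (adjusted p = 0.0355) and miR400 (0.0337) then passed, at a background of 20.9%, while miR173 (0.0547) and miR161.1 (0.0959) did not. The methods give a threshold of 0.05 and name no adjustment. At an unadjusted p under 0.05 miR173 passed as well and miR161.1 did not, at a background of 51.2%.

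The effect of EBR after 30 min was asked first. Of the 4 miRNAs only miR161.2 was called, higher in EBR30 than in mock30, against 30.2% of the 43 tested that were called higher. Its mean ratio was 1.00 ± 0.00511 in EBR30 and 0.766 ± 0.0226 in mock30 (SD, n = 2 arrays each). The log2 fold change was 0.39 ± 0.12 (SE, adjusted p = 0.0150 from limma), or 1.31-fold, the 4th highest of the 43. After centring it was 0.22 ± 0.072 and no longer passed (adjusted p = 0.0670). It also did not pass without mock30 replicate 1 (log2 fold change 0.35), without EBR30 replicate 1 (0.39) or without EBR30 replicate 2 (0.38).

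miR400 averaged 0.946 ± 0.0156 in EBR30 and 0.782 ± 0.0509 in mock30, which is 0.28 on the log2 scale (95% interval 0.029 to 0.52, adjusted p = 0.0718 from limma). miR161.1 averaged 0.997 ± 0.0388 in EBR30 and 0.858 ± 0.0590 in mock30, 0.22 apart on the log2 scale (95% interval -0.029 to 0.46, adjusted p = 0.150). For miR173 the means were 0.966 ± 0.00192 in EBR30 and 0.838 ± 0.0625 in mock30, and the log2 difference 0.21 (95% interval -0.040 to 0.45, adjusted p = 0.173). None of these 3 passed, although miR400 did without mock30 replicate 2 (0.34) and without either EBR180 array (0.28 each), which enter through the shared spread. On all 4 miRNAs both EBR30 arrays lay above both mock30 arrays, as they did for 65.1% of the tested miRNAs, so this order was common on these arrays. The median log2 fold change was 0.25 over the 4 and 0.18 over all 43. After centring, miR400 was at 0.11, miR161.1 at 0.052 and miR173 at 0.041, and after quantile normalization miR173 was at -0.0090.

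At 180 min the direction of miR161.2 was the opposite one. It was lower in EBR180 than in mock180, the only call among the 4, where 6.98% of the 43 were called lower. The mean ratio was 0.969 ± 0.132 in EBR180 and 1.35 ± 0.0675 in mock180. The log2 fold change was -0.49 ± 0.12 (SE, adjusted p = 0.00291 from limma), which was the lowest value of all 43 tested miRNAs. After centring it was -0.48 ± 0.072 (adjusted p = 0.00548), so the change hardly depended on the array medians, which differed little between EBR180 and mock180. The call was lost without EBR180 replicate 2, which left a value of -0.35 (adjusted p = 0.0660), and with each miRNA's own spread (adjusted p = 0.165).

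miR400 averaged 1.12 ± 0.113 in EBR180 and 1.26 ± 0.0307 in mock180. Its log2 fold change of -0.18 did not pass (95% interval -0.42 to 0.071, adjusted p = 0.464 from limma). It was -0.28 without EBR180 replicate 1 and -0.072 without EBR180 replicate 2. After centring the value was nearly the same, -0.16, but the standard error was 0.048 and the adjusted p 0.0446, at a background of 14% called lower. Both miR161.2 and miR400 had their EBR180 arrays below both mock180 arrays, an order seen for 32.6% of the tested miRNAs. miR161.1 averaged 1.03 ± 0.0705 in EBR180 and 1.07 ± 0.0362 in mock180, with a log2 fold change of -0.063 (95% interval -0.31 to 0.18). For miR173 the means were 1.08 ± 0.0731 in EBR180 and 1.14 ± 0.0155 in mock180, and the log2 fold change was -0.074 (95% interval -0.32 to 0.17). The last pair of differences were smaller than their standard error of 0.12, and both had an adjusted p of 0.735. After centring miR161.1 was at -0.052 and miR173 at -0.063, and neither passed. The median over the 4 was -0.12 and that over all 43 was -0.016.

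**Figure D2:**
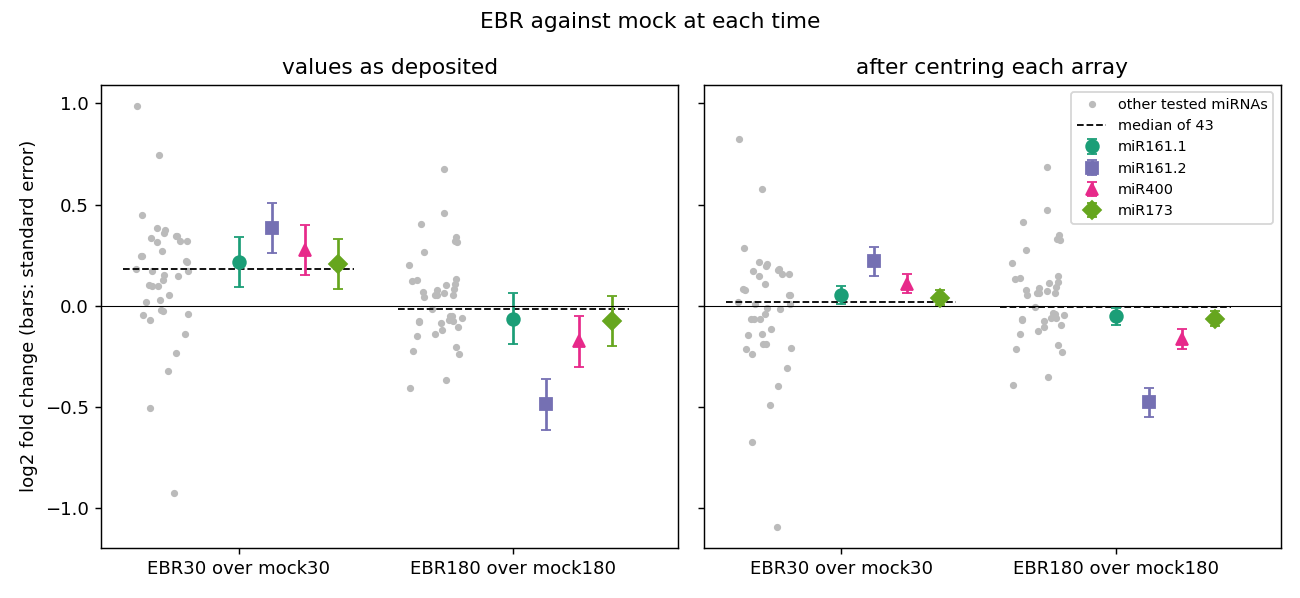
Log2 fold change of EBR over mock (vertical axis) at 30 and at 180 min for the 4 miRNAs (coloured points, bars standard errors) and the other tested miRNAs (grey), on the deposited values (left) and after centring each array (right), with the median of all 43 dashed. miR161.2 is at 0.39 at 30 min and at -0.49 at 180 min, below all grey points of that time.

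Whether the EBR effect differed between the times was tested as the effect at 180 min minus that at 30 min. It was lower at 180 min for miR161.2 and miR400, that is 2 of the 4, where 16.3% of the 43 tested were called lower. The difference was -0.87 ± 0.18 for miR161.2 (SE, adjusted p = 1.93e-05 from limma) and -0.45 ± 0.18 for miR400 (adjusted p = 0.0474). Both also passed after centring, with -0.70 (adjusted p = 0.00244) and -0.27 (adjusted p = 0.0225), where again 16.3% of the 43 were called lower. miR161.2 passed under all 15 alternatives, with an adjusted p of at most 0.0492. miR400 lay just inside the threshold. It lost the call after quantile normalization (-0.21, adjusted p = 0.116) and when any single array other than mock30 replicate 2 or EBR180 replicate 1 was left out (-0.48 to -0.35). For miR161.1 and miR173 the difference was -0.28 each (adjusted p = 0.205 each) and after centring -0.10 each, with no call, and the median over all 43 was -0.24.

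The same difference can be read as a change with time that was smaller with EBR than in mock. With EBR none of the 4 miRNAs was called by limma between 180 and 30 min, where 18.6% of the 43 were, and none had an unadjusted p under 0.05. The log2 fold change of EBR180 over EBR30 was -0.052 for miR161.2 (95% interval -0.30 to 0.19), 0.041 for miR161.1 (-0.21 to 0.29), 0.24 for miR400 (-0.0021 to 0.49) and 0.17 for miR173 (-0.080 to 0.41). The adjusted p values from limma were 0.843 for both products of MIR161, 0.172 for miR400 and 0.417 for miR173. Only without EBR180 replicate 2 did miR400 pass (0.35, adjusted p = 0.0457). After centring the values were -0.18 for miR161.2, -0.087 for miR161.1, 0.12 for miR400 and 0.038 for miR173, and none was called by limma. For miR400 and miR173 both EBR180 arrays lay above both EBR30 arrays, as for 51.2% of the tested miRNAs.

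In the mock seedlings all 4 miRNAs were called higher at 180 than at 30 min, in a comparison in which 58.1% of the 43 tested miRNAs were. miR161.2 had a log2 fold change of 0.82 ± 0.12 (SE, adjusted p = 1.22e-08 from limma), or 1.76-fold, the second highest of the 43. miR400 followed in rank with 0.69 (adjusted p = 1.38e-06), or 1.62-fold. miR173 was at 0.45 (adjusted p = 0.00146) and miR161.1 at 0.32 (adjusted p = 0.0203). The call of miR161.1 was lost without mock30 replicate 1 (0.25) or mock180 replicate 2 (0.29). On all 4 both mock180 arrays lay above both mock30 arrays, as for 76.7% of the tested miRNAs. The median of all 43 was 0.29, so miR161.1 lay close to the middle of the tested miRNAs. After centring the values were 0.52 for miR161.2 (adjusted p = 0.00194), 0.39 for miR400 (adjusted p = 0.00137) and 0.14 for miR173 (adjusted p = 0.0343), all past the threshold, at a background of 16.3% called higher. miR161.1 was then at 0.017 (adjusted p = 0.767). Across both treatments, all 180 min arrays of miR400 and of miR173 lay above all 30 min arrays, which held for 27.9% of the 43.

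**Figure D3:**
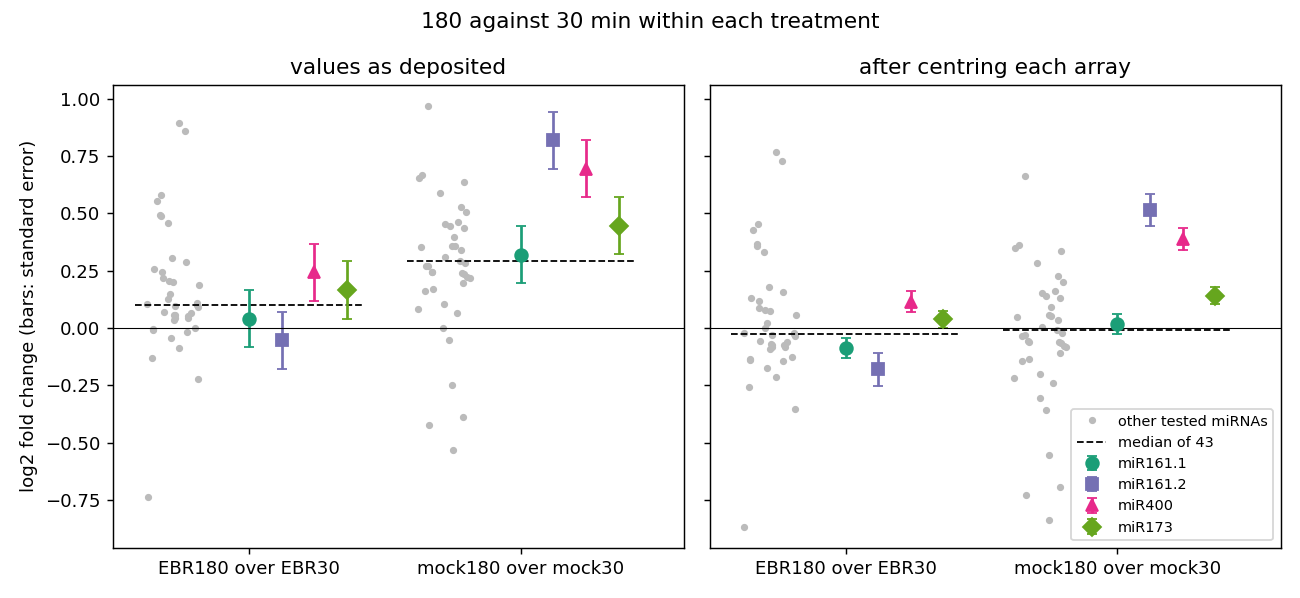
Log2 fold change of 180 over 30 min (vertical axis) with EBR and in mock, for the 4 miRNAs (coloured points, bars standard errors) and the other tested miRNAs (grey), on the deposited values (left) and after centring each array (right), with the median of all 43 dashed. In mock miR161.2 is at 0.82 and miR400 at 0.69, and with EBR they are at -0.052 and 0.24.

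Because miR161.1 and miR161.2 come from one precursor, their values were set against each other on each array. An array-wide scaling cancels in this quotient. The log2 of the miR161.2 ratio over the miR161.1 ratio was 0.040 and -0.029 on the EBR30 arrays and -0.12 and -0.20 on the mock30 arrays. It was -0.018 and -0.16 on the EBR180 arrays, against 0.42 and 0.25 on the mock180 arrays. Only the mock180 arrays stood clearly above 0, and there miR161.2 was 1.26-fold above miR161.1, each relative to its own median. The other 3 groups lay within a span from -0.20 to 0.040.

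In EBR30 the mean of this log2 quotient was 0.0055 ± 0.049, against -0.16 ± 0.057 in mock30 (SD, n = 2 arrays each), and the groups did not overlap. In EBR180 it was -0.087 ± 0.099, against 0.34 ± 0.12 in mock180, again without overlap and with the order turned round. How often the quotients of other miRNA pairs separate like this was not computed. The differences, 0.17 at 30 min and -0.42 at 180 min, each had p = 0.333 in a two-sided exact permutation test, the smallest p that 2 arrays against 2 allow. The EBR effect on the quotient at 180 min minus that at 30 min was -0.59 on the log2 scale. With the EBR and mock labels permuted within each time this gave a two-sided exact p = 0.0556, the smallest of the 36 arrangements, and 0.278 after Benjamini-Hochberg adjustment over the 5 comparisons of the quotient. The design thus cannot reach 0.05 in this test. Over all arrays the quotient was 0.20 higher at 180 than at 30 min (exact permutation p = 0.257), with 0.10 without mock180 replicate 1 and 0.30 without EBR180 replicate 2. The difference of EBR from mock over both times was -0.13 (exact permutation within times, p = 0.389), and neither passed. That difference was -0.085 without mock180 replicate 1. miR161.1 varied little after centring. The quotient thus largely repeats the centred EBR effects on miR161.2, 0.22 at 30 min and -0.48 at 180 min. Whether the array probes tell the 2 overlapping miRNAs fully apart was not tested.

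**Figure D4:**
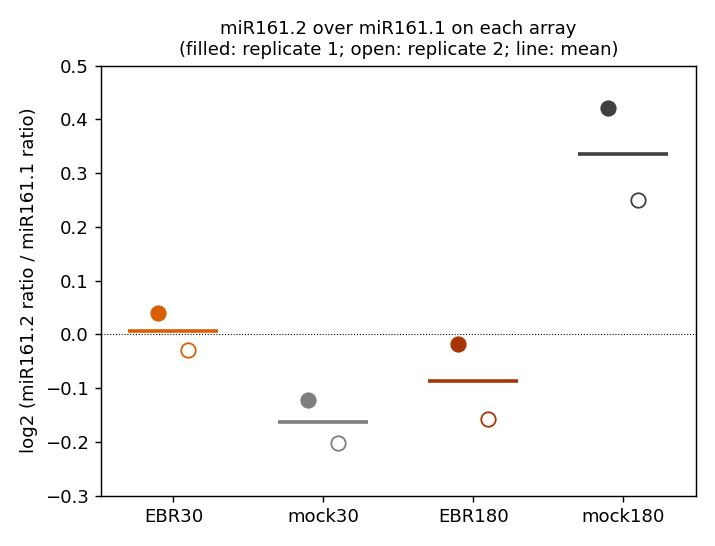
Log2 of the miR161.2 ratio over the miR161.1 ratio (vertical axis) on each array, by group (filled points replicate 1, open points replicate 2, lines group means). The mock180 arrays are at 0.42 and 0.25, and the arrays of the other groups lie between -0.20 and 0.040.

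Likeness between miRNAs was measured as the root mean square difference of their log2 ratios over the 8 arrays, which no array-wide scaling can change. Over all 903 pairs of the 43 miRNAs its median was 0.20. miR161.1 and miR161.2 were 0.20 apart, which was 446th of the 903 pairs from the closest, in the middle of the order. Seen from miR161.1, miR161.2 ranked 31st of 42, and seen from miR161.2, miR161.1 ranked 9th of 42. The median distance to the other miRNAs was 0.14 for miR161.1 and 0.24 for miR161.2. The nearest to miR161.1 were miR168a at 0.047, which targets the mRNA of the silencing protein AGO1, miR167a at 0.053, a regulator of auxin response factors, and miR775 at 0.053.

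The nearest to miR161.2 were miR169h at 0.13, which acts on NF-YA transcription factor mRNAs, miR400 at 0.13 and miR157d, a regulator of SPL transcription factors, at 0.16. miR400 was nearest to miR173 at 0.096, then to miR158a at 0.11 and miR169h at 0.13, and miR161.2 was its 4th nearest at 0.13. miR173 was nearest to miR158a, which was first of all 903 pairs at 0.030, followed by miR167a at 0.070 and miR161.1 at 0.071. All points share the same 8 arrays and labelling, and the distances are descriptions without a test.

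**Figure D5:**
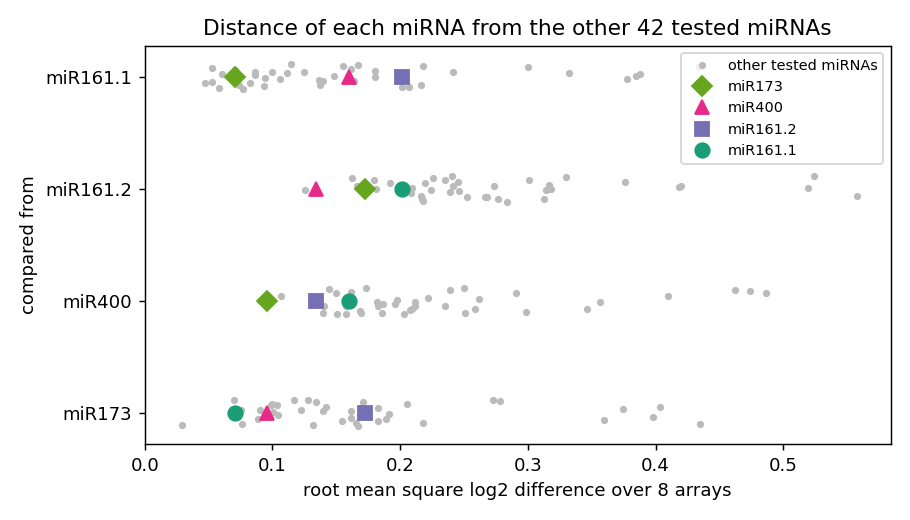
Root mean square log2 difference over the 8 arrays (horizontal axis) of each of the 4 miRNAs (rows) from the other 42 tested miRNAs (grey points, with the other 3 members in colour). miR173 and miR161.1 are 0.071 apart and miR161.1 and miR161.2 0.20 apart.

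For comparison, 7 further miRNAs of small-RNA pathways were looked up, of which 4 were above 0.01 on all arrays. The other 3 were at 0.01 on all 8 arrays: miR828, which triggers siRNAs from TAS4, miR472, which starts siRNAs from mRNAs of immune receptors, and miR393a, which targets auxin receptor mRNAs. Of the measured 4 only miR162a, which targets the mRNA of the dicing enzyme DCL1, was called with EBR. Its ratio was 1.01 and 0.964 in EBR30 and 0.798 and 0.719 in mock30, so that EBR30 was 0.38 higher on the log2 scale (limma, adjusted p = 0.0150), close to the 0.39 of miR161.2. After centring it was 0.22 and did not pass (adjusted p = 0.170). miR168a, miR403, which targets AGO2 mRNA, and miR390a, the trigger of TAS3 siRNAs, were called in neither EBR comparison. At 180 min 0 of the 4 were called by limma, where 16.3% of the 43 were, nor had any an unadjusted p under 0.05. At 30 min 37.2% of the 43 were called. miR162a, miR168a and miR403 were called higher in mock180 than in mock30, where 58.1% of the 43 were, and miR390a was not. After centring these 3 calls were lost (adjusted p = 0.358 for miR162a, 0.734 for miR168a and 0.760 for miR403). The EBR effect on miR390a was -0.021 at 30 min and 0.20 at 180 min, with no call. Its effect at 180 min minus that at 30 min was 0.22 and did not pass on the deposited values (adjusted p = 0.274 from limma). It was called after centring (0.40, adjusted p = 0.0280), where 18.6% of the 43 were called higher, but not after quantile normalization (0.42, adjusted p = 0.0617).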

How the data were processed

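miRNAs were measured on customized single-colour Agilent arrays with Cyanine 3-labelled total RNA, read with Agilent Feature Extraction 9.1 per the submitters' processing notes. The authors deposited 1 ratio per miRNA and array, for which GeneSpring combined duplicate or triplicate probes and took the median over all samples as the baseline. How background, dim spots and differences in brightness between arrays were handled is not given in the sources used here, and no signal over background is known, so only the number of arrays shows the precision. Of the miRNAs, 43 were above the lowest value of 0.01 on all 8 arrays, 4 on some arrays and 114 on none.

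The log2 ratios of the 43 were fitted in limma 3.58.1 (R 4.3.3) with a mean per group and empirical Bayes moderation. On the deposited values this gave all miRNAs a common standard error, pooled over the 43 as if they varied independently. Deviations that the miRNAs of an array share are not allowed for, so these p-values may be too small. After centring the standard errors differed between miRNAs. The Benjamini-Hochberg adjustment ran over these 43, with calls at an adjusted p under 0.05. The code was tested on simulated data. The quotient of miR161.2 and miR161.1 was compared by exact permutation over arrays. The members and the list of related miRNAs were chosen with earlier results of these data known. Besides the members, the 3 miRNAs nearest to each by root mean square log2 difference are named, and of the related list those called, with the others named for their role after the values were seen. Locus names came from the RefSeq annotation named above, and no coordinates are given, since the deposited array data name no genome build. The alternatives were centring of the arrays, a block for the replicate number, quantile normalization, a variance per miRNA, a fit to the compared groups only, log2 of the ratio plus 1, the 4 miRNAs partly at 0.01 added to the fit, adjustment over the whole table and the omission of single arrays.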

Additional observations from a re-analysis of the deposited data

Results flagged for a closer look

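The effect of EBR on miR161.2 differed between the times in a test of the difference itself. The effect at 180 min minus that at 30 min was -0.87 on the log2 scale (adjusted p = 1.93e-05 from limma), with 0.39 at 30 min and -0.49 at 180 min. With each miRNA's own spread in place of the pooled one, the adjusted p of this difference was 0.0492.

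For miR400 the same difference was -0.45 (adjusted p = 0.0474 from limma), with 0.28 at 30 min and -0.18 at 180 min. Neither of these separate effects passed the threshold on the deposited values. Groups of 2 arrays are too small to look for single arrays far from the others.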

How the results depend on the processing

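Of the 20 limma results of the 4 miRNAs, miR161.2 kept its call under all alternatives in the difference of the EBR effects and in mock180 over mock30, where miR400 did too. At 30 min the call of miR161.2 was lost after centring (0.22) and quantile normalization (0.20), and at an unchanged 0.39 with its own spread, with the 4 miRNAs partly at 0.01 added, or with adjustment over the whole table (adjusted p 0.0563 to 0.282 over these settings). At 180 min it was lost at -0.49 with its own spread (adjusted p = 0.165) and with those 4 added (adjusted p = 0.112). The difference of the EBR effects on miR400 was lost after quantile normalization (-0.21), and at -0.45 with its own spread, with the 4 added or over the whole table, and its EBR effect at 180 min passed after centring (-0.16). The sign turned for miR173 at 30 min after quantile normalization (-0.0090), and for EBR180 over EBR30 of miR161.1 after centring (-0.087) and quantile normalization (-0.11). The mock180 over mock30 call of miR161.1 was also lost over the whole table and after quantile normalization (0.020). That of miR173 was lost after quantile normalization as well (0.13). The cause was not tested.

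Omitting single arrays gave miR161.2 values from 0.35 to 0.42 at 30 min and from -0.63 to -0.35 at 180 min. For miR400 the difference of the EBR effects ranged from -0.55 to -0.35 and the EBR effect at 30 min from 0.21 to 0.34. The EBR effect on miR161.1 at 180 min ranged from -0.13 to 0.0070, and EBR180 over EBR30 from -0.030 to 0.11 for miR161.1 and from -0.19 to 0.087 for miR161.2. A lone array left in a group is assumed to vary like the others.

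Over all 43 miRNAs the calls at 30 min numbered 16, but 8 after centring, 6 after quantile normalization, 2 with own spread, 4 with the 4 added, 5 over the whole table and 5 to 19 with single arrays omitted. At 180 min there were 7, against 13, 11, 0 (9 at an unadjusted p under 0.05), 1, 5 and 2 to 9 in the same order. For the difference of the effects there were 11, against 15, 14, 4, 6, 7 and 7 to 13, for EBR180 over EBR30 8, against 12, 11, 2, 2, 8 and 4 to 11, and for mock180 over mock30 28, against 15, 10, 22, 27, 21 and 19 to 32.

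With the replicate block the EBR effects on miR161.2 stayed at 0.39 and -0.49, and no call of the 4 miRNAs and no count changed. Deviations of same-numbered arrays correlated between groups at 0.11 to 0.36 across the 43 miRNAs, but the labels do not tie a number to a shared experiment.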
